A study of Homo sapiens with 24 samples.

Results

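HL-60 cells grown with arsenic trioxide (ATO) were compared with untreated HL-60 cells across all genes of the deposited count table. HL-60 is an established promyeloblast line from an acute myeloid leukaemia. The 6 libraries compared, 3 from ATO-treated and 3 from untreated cells, were picked by their column names out of 24 libraries in all. The other libraries come from HL-60 cells with all-trans retinoic acid (ATRA) alone or with both drugs, and from the same 4 conditions in NB4, an acute promyelocytic leukaemia (APL) line. By its title the series is about the DNA damage response of APL cells under these drugs. ATO was given at 0.8 µM for 48 h. The untreated cells received no drug, and neither a vehicle nor a culture time is given for them. Both HL-60 groups are labelled as promyeloblasts of genotype WT, they share no treatment, and each rests on this single line. The 3 libraries of a group are numbered as batches with no statement that these came from different cultures. The p-values below therefore measure only how far these samples spread, which may be technical.

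The libraries held 46769834, 52597424 and 45516497 counts with ATO, against 41805150, 53023035 and 43850656 counts in untreated cells. Markers of promyeloblasts summed to between 6859 and 6959 CPM (counts per 1000000 counts) with ATO, against between 8017 and 8619.7 CPM in untreated cells, and 14 of the 15 markers reached 1 CPM. Markers of other cell types were low. The B cell markers reached at most 10.2 CPM with ATO and 3.49 CPM in untreated cells, and the megakaryocyte markers at most 2.07 CPM with ATO and 0.55 CPM in untreated cells. Erythroid markers were at 0 reads for 8 of 10 genes, T cell markers for 4 of 8, and epithelial and stromal markers for 5 of 10. Every pair of libraries within a group differed by more than counting noise, so none was treated as a copy of another. In such bulk samples fewer cells of a type and less RNA per cell cannot be told apart.

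As background, arsenic trioxide treats APL because it binds the PML part of the PML-RARA fusion protein and has it degraded, and HL-60 cells carry no such fusion. Trivalent arsenic reacts with thiols. When it modifies cysteines of KEAP1, the transcription factor NRF2 is spared from degradation and, paired with small MAF proteins, binds antioxidant response elements in front of genes for glutathione synthesis, NADPH supply, haem breakdown and iron storage. BACH1 represses some of the same genes until haem or oxidants displace it. Metals also act through the zinc-finger factor MTF1, which binds metal response elements in front of the metallothionein genes, whose cysteine-rich products hold metal ions. Cells join arsenic to glutathione and export it through ABC transporters.

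Promoters are shown for 3 genes that rose with ATO and whose families these factors are known to regulate, the metallothionein genes MT2A and MT1X and the malic enzyme gene ME1. Each runs from 250 bases before to 50 bases after the gene's start in RefSeq (GRCh38.p14), 5′ to 3′ on the gene's own strand. For MT2A (chr16:56608334-56608633, + strand) and MT1X (chr16:56682220-56682519, + strand) the capitals mark matches to the metal response element core, TGCACNC or TGCGCNC on either strand. For ME1 (chr6:83431002-83431301, - strand) they mark matches to the antioxidant response element core, TGACNNNGC on either strand.
MT2A: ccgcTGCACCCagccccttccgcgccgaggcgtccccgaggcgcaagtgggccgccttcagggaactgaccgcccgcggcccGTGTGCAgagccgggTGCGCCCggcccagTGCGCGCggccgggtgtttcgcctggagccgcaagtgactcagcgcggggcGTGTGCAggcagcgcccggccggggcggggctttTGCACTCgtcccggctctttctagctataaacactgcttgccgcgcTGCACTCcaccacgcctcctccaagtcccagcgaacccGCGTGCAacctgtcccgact
MT1X: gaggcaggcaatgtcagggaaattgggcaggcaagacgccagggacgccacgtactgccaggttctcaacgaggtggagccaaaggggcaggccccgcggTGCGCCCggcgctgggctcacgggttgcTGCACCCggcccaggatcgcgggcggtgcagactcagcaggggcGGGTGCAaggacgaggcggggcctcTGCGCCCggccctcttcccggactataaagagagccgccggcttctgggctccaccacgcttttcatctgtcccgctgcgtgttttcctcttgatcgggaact
ME1: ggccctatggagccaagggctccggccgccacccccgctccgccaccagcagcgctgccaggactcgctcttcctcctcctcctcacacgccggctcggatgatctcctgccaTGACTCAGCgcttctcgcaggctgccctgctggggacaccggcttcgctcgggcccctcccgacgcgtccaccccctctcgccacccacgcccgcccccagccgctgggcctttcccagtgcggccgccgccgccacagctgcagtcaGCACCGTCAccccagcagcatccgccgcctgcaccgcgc
MT2A held 8 matches covering 56 bases and MT1X held 4 covering 28 bases. Such a match is common, since 29.5% of 35097 RefSeq promoters of this length held at least 1. The antioxidant core was in 13.3% of these promoters, and in 11 of the 28 NRF2 target genes with a promoter in the table (ABCB6, CBR1, EPHX1, FECH, GCLM, KEAP1, ME1, MGST1, PGD, PIR and TXNRD1). A gene counted if any of its promoters matched, whereas the percentages are of single promoters, so the shares are not strictly alike. The full form TGACTCAGC, which ME1 carries on its own strand, was in 0.561% of promoters and in 2 of those 28, ME1 and PIR. MT2A, which is not on the NRF2 list, also carries this full form on its own strand. It is left in small letters above, since only metal response element matches are marked there. Of the 5 metallothionein genes tested, MT2A and MT1X had a promoter in the table. A match describes letters in this window and shows no binding.

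ATO changed the level of 4554 of 15895 genes tested (28.7%). A gene is called here when its adjusted p in edgeR's quasi-likelihood test was below 0.05. Of the called genes 2625 rose (16.5% of genes tested) and 1929 fell (12.1%), and most changes were small, since 678 genes (4.27%) were both called and at least 2-fold apart, 534 higher (3.36%) and 144 lower (0.906%). The change had the same sign in all 3 batches for 4503 of the called genes (28.3% of genes tested). Log2 changes below stand with their standard error, and mean levels with their SD over the 3 libraries of a group (n = 3). The median log2 change of all genes was 0.02, and library-size scaling in place of TMM scaling moved it by 0.017. With library sizes alone 62.6% of the called genes were higher, against 57.6% here, and with DESeq2's size factors 54.7%.

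**Figure D1:**
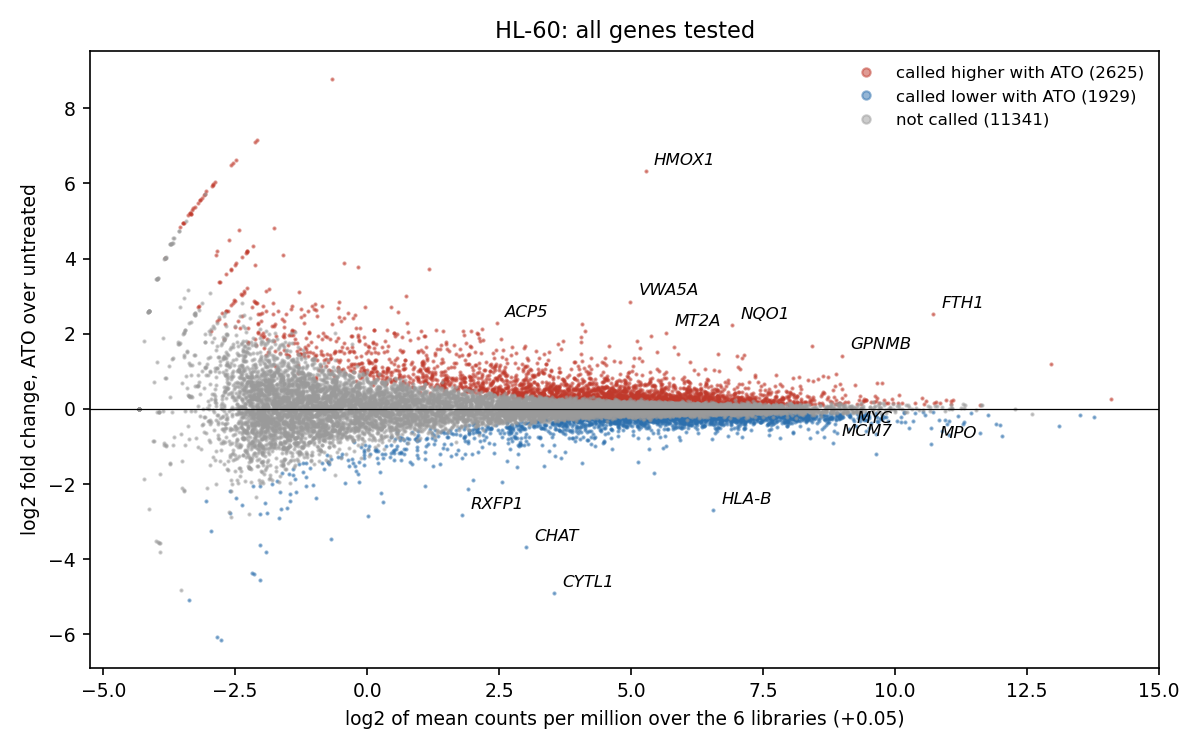
Log2 fold change (ATO over untreated, vertical axis) of each gene tested against the log2 of its mean CPM over the 6 libraries (horizontal axis). Red points are the 2625 genes called higher, blue points the 1929 called lower and grey points were not called. HMOX1 stands far above the other genes of its level.

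The haem oxygenase gene HMOX1 (chr22:35380361-35394214, + strand), whose product breaks haem down to iron, carbon monoxide and biliverdin, had 74.2, 70 and 85.5 CPM with ATO, against 0.986, 0.86 and 1.02 CPM in untreated cells. All 3 ATO libraries lay far above the untreated ones, and the log2 change was 6.33 ± 0.12 (adjusted p = 6.07e-20), a fitted ratio of 80.4. The next smallest p-value was that of the ferritin heavy chain gene FTH1 (chr11:61959718-61967660, - strand), which stores the freed iron, with 2726, 2839.6 and 3092 CPM with ATO, against 489, 536 and 479 CPM in untreated cells. Its log2 change was 2.53 ± 0.053 (adjusted p = 2.61e-19). NQO1 (chr16:69706996-69726951, - strand), a quinone reductase, had 184, 197 and 217 CPM with ATO, against 42.2, 44 and 41.8 CPM in untreated cells and a log2 change of 2.22 ± 0.06. VWA5A (chr11:124115362-124147721, + strand), which encodes a protein with a von Willebrand factor A domain, had 52.8, 54.4 and 59.7 CPM with ATO, against 8.71, 7.37 and 7.09 CPM in untreated cells, and the groups were again apart (2.85 ± 0.071). Other large rises were in ACP5, the tartrate-resistant acid phosphatase (2.28 ± 0.17), FGR, a SRC family kinase of myeloid cells (2.25 ± 0.076), TM6SF1, a lysosomal membrane protein (2.11 ± 0.14), and SLC26A11, an anion transporter (2.08 ± 0.12). GPNMB (chr7:23235967-23275108, + strand), a glycoprotein of lysosomes and melanosomes, rose by less but from a high level, with 733, 727 and 779 CPM with ATO, against 278, 285 and 275 CPM in untreated cells (1.42 ± 0.038, adjusted p = 1.65e-17).

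Among protein-coding genes at 5 CPM or more, the largest falls were spread over receptors, enzymes and regulators. CYTL1, a secreted cytokine-like protein first found in blood progenitors, had 0.787, 0.997 and 0.426 CPM with ATO, against 21, 25 and 21 CPM in untreated cells, and its log2 change was -4.90 ± 0.20 (adjusted p = 3.52e-12). CHAT, which makes acetylcholine, had 1.41, 1.13 and 0.937 CPM with ATO, against 15.1, 15.2 and 14.4 CPM in untreated cells (-3.68 ± 0.21). RXFP1, the relaxin receptor, changed by -2.82 ± 0.26 and the class I antigen-presenting gene HLA-B (chr6:31269491-31357188, - strand) by -2.69 ± 0.066. HLA-B had 27.7, 25.8 and 21.9 CPM with ATO, against 161, 171 and 156 CPM in untreated cells, so every ATO library was below every untreated one. The telomerase gene TERT changed by -1.94 ± 0.19, the homeobox gene UNCX by -1.90 ± 0.28 and CCR2, the monocyte chemokine receptor, by -1.70 ± 0.074. Among highly expressed genes, MCM7 (chr7:100092728-100101940, - strand), a subunit of the replicative helicase, had 330.3, 316 and 311 CPM with ATO, against 594, 620.0 and 567 CPM in untreated cells (-0.90 ± 0.045, adjusted p = 1.29e-12).

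**Figure D2:**
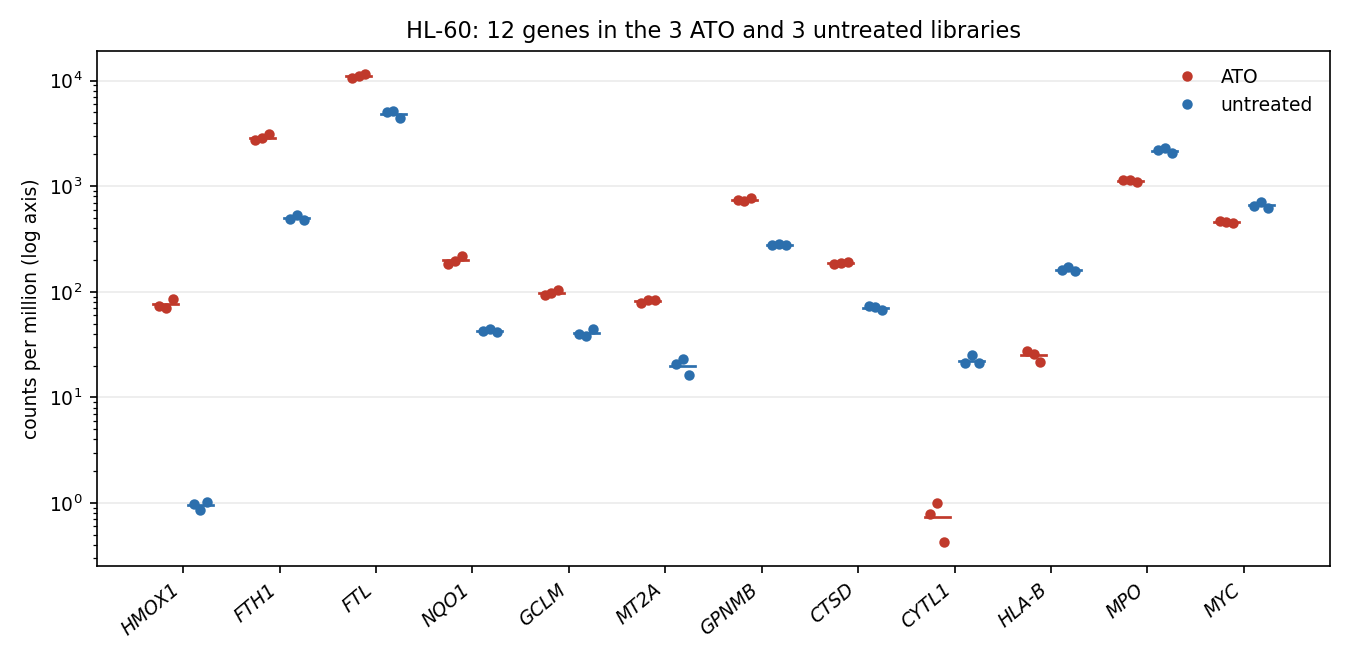
CPM (log axis) of 12 genes in the 3 ATO libraries (red, left of each pair) and the 3 untreated libraries (blue, right); short lines are group means. In none of the 12 genes do the groups overlap, as held for 42.9% of all genes tested; HMOX1 lies between 70.0 and 85.5 CPM with ATO and between 0.86 and 1.02 CPM without it.

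Genes that NRF2 is known to switch on rose together. Of the 35 NRF2 targets in the list, all tested, 26 rose, none fell and 9 were not called (74.3% called, against 28.7% of all genes), and their median log2 change was 0.60, against 0.02 over all genes. GCLM, the modifier subunit of the enzyme that starts glutathione synthesis, had 92.9, 97 and 103 CPM with ATO, against 39.8, 38.3 and 44.3 CPM in untreated cells (1.26 ± 0.066). Its catalytic partner GCLC changed by 0.31 ± 0.043, and the glutathione reductase GSR by 0.35 ± 0.045. The adaptor SQSTM1, which hands ubiquitinated proteins to autophagosomes and binds KEAP1, had 502, 498 and 578 CPM with ATO, against 161, 178 and 156 CPM in untreated cells (1.67 ± 0.058, adjusted p = 2.06e-15). The cystine importer SLC7A11 rose by less (0.48 ± 0.11), as did the thioredoxin reductase gene TXNRD1 (0.45 ± 0.044, 463 ± 24.2 CPM with ATO and 339 ± 13.4 CPM in untreated cells). SRXN1, which restores oxidised peroxiredoxins, was at 1.02 ± 0.276 CPM with ATO and 0.653 ± 0.111 CPM in untreated cells and was not called (adjusted p = 0.201). The regulators themselves showed no call, with log2 values of -0.11 ± 0.062 for NFE2L2, which encodes NRF2, 0.08 ± 0.07 for KEAP1 and 0.11 ± 0.048 for MAFG, whereas BACH1 rose by 0.26 ± 0.073, a call lost without untreated library 1. ESD, a formylglutathione hydrolase and the uncalled member with the highest level, had a log2 value of -0.05 ± 0.049.

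**Figure D3:**
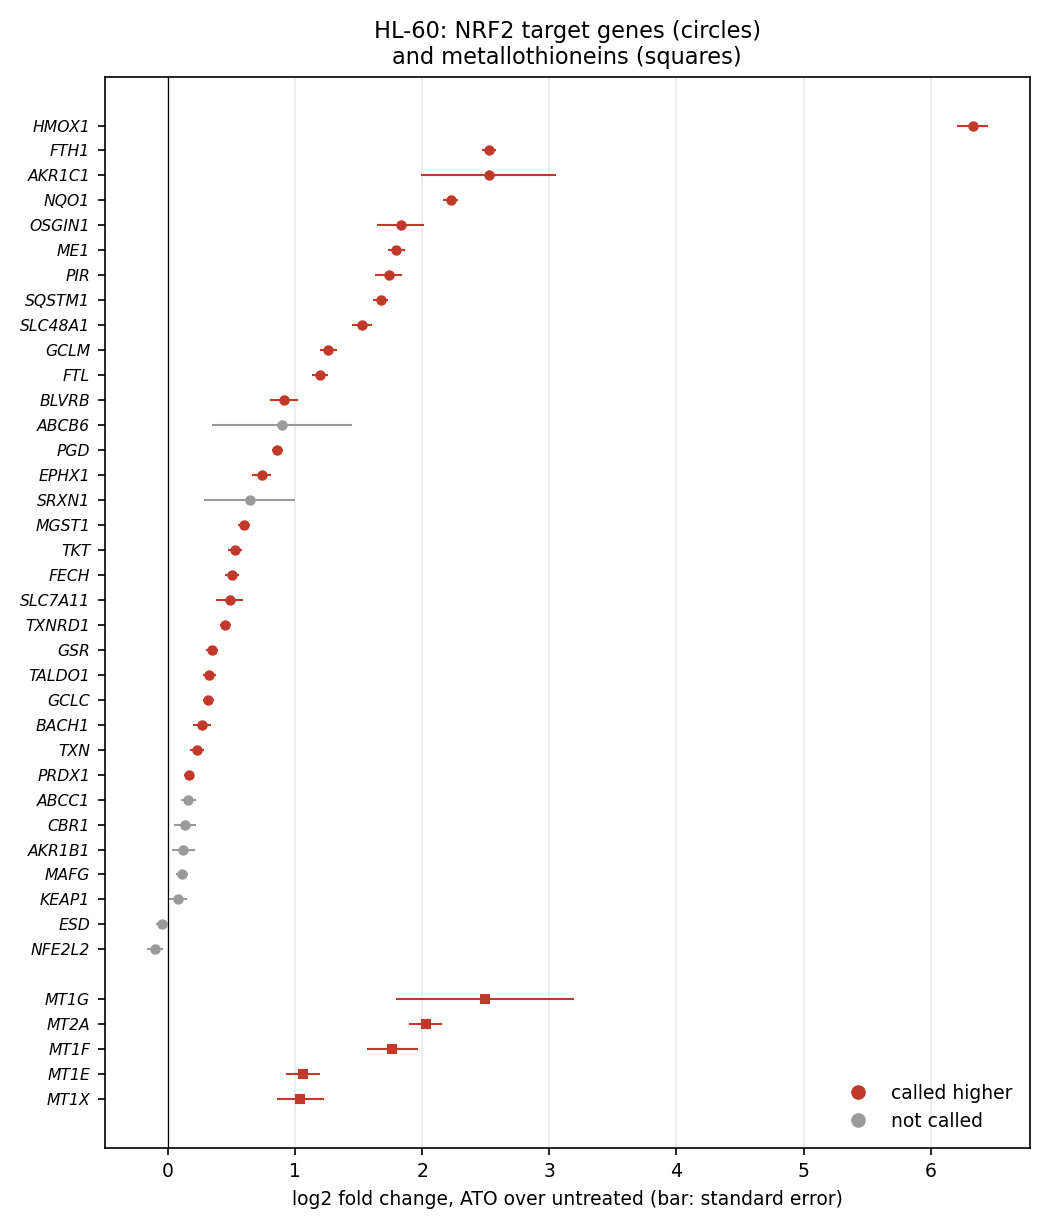
Log2 fold change (ATO over untreated) with its standard error for 34 of the 35 NRF2 target genes (circles) and the 5 metallothionein genes tested (squares), each set ordered by size. Red members were called higher and grey ones were not called; 25 circles and all 5 squares are red.

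The enzymes that supply NADPH, the electron source of glutathione and thioredoxin reductases, rose as well. Of 16 tested, 10 rose and 1 fell (68.8% called, median 0.19). ME1, the cytosolic malic enzyme whose promoter is printed above, had 51.6, 51.4 and 57.2 CPM with ATO, against 15.3, 14.2 and 16.8 CPM in untreated cells (1.79 ± 0.068, adjusted p = 9.72e-15). PGD, an oxidative enzyme of the pentose phosphate pathway, had 375 ± 8.28 CPM with ATO and 206 ± 14 CPM in untreated cells (0.86 ± 0.045) and TKT, a transketolase, 603 ± 5.32 CPM with ATO and 419 ± 27 CPM in untreated cells (0.53 ± 0.052). ME2, the mitochondrial malic enzyme, was not called (-0.05 ± 0.042). In the wider glutathione and thioredoxin systems 20 of 39 tested members rose and 4 fell (61.5% called, median 0.23). The microsomal transferase MGST1 had 254 ± 10.6 CPM with ATO and 168 ± 7.14 CPM in untreated cells (0.60 ± 0.046). The selenoenzyme GPX1, which reduces peroxides, went the other way, with 292, 299 and 278 CPM with ATO, against 432, 482 and 417 CPM in untreated cells (-0.62 ± 0.063), and every ATO library was below the untreated ones. PRDX3, the mitochondrial peroxiredoxin, was not called (-0.11 ± 0.045). TXNIP, which binds thioredoxin, rose by 0.36 ± 0.051. Over the 17 selenoprotein mRNAs tested 5 rose and 2 fell (41.2% called, median 0.07), among them MSRB1, a methionine sulfoxide reductase (0.69 ± 0.064).

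Genes of iron storage and haem breakdown rose. FTH1 and the ferritin light chain gene FTL together took 1.38%, 1.44% and 1.51% of all counts with ATO, against 0.561%, 0.57% and 0.501% in untreated cells. This share differed with an exact two-sided permutation p of 0.1, the smallest that 3 libraries against 3 can give. FTL had 10592, 11141 and 11500.1 CPM with ATO, against 5012, 5114 and 4382 CPM in untreated cells (1.20 ± 0.06). SLC48A1, a haem transporter of endosomes, had 67.1 ± 3.44 CPM with ATO and 23.3 ± 1.41 CPM in untreated cells (1.53 ± 0.081). TFRC, the transferrin receptor that brings iron in, was at 608 ± 26.3 CPM with ATO and 630.1 ± 22.3 CPM in untreated cells and was not called (-0.05 ± 0.041, adjusted p = 0.381). Of 30 tested genes for haem, ferritin and iron, 12 rose and 1 fell (43.3% called, median 0.10).

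All 5 metallothionein genes that could be tested rose, and their median log2 change was 1.77. MT2A, whose promoter carries the 8 matches printed above, had 78.3, 82.8 and 82.9 CPM with ATO, against 20.6, 22.9 and 16.3 CPM in untreated cells (2.03 ± 0.13, adjusted p = 7.06e-11). MT1X had 5.22, 5.35 and 5.41 CPM with ATO, against 2.39, 3.22 and 2.13 CPM in untreated cells (1.04 ± 0.18), MT1F changed by 1.77 ± 0.20 and MT1E by 1.06 ± 0.13. MT1G was low, at 0.656 ± 0.119 CPM with ATO and 0.115 ± 0.0544 CPM in untreated cells (2.49 ± 0.70), and its call was lost without ATO library 1 or untreated library 2. The 5 other genes of the family, MT1A, MT1H, MT1M, MT3 and MT4, had too few reads to be tested. These genes are near-identical copies of each other, so the authors' counting could have split or lost reads that match several of them. Zinc and copper transporters and related metal genes showed 3 rises and 2 falls among 17 tested (29.4% called, near the 28.7% of all genes), with SLC30A1, a zinc exporter that MTF1 is known to regulate, at 0.44 ± 0.058.

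Genes that take up, methylate or export arsenic moved in both directions. Of 16 tested, 5 rose and 5 fell (62.5% called, against 28.7% of all genes), with a median of -0.07. GSTO1, which reduces methylated arsenic, rose (0.35 ± 0.055, 118 ± 4.8 CPM with ATO and 92.5 ± 6.36 CPM in untreated cells). PNP, which reduces arsenate, fell (-0.38 ± 0.059), as did AHCY, which recycles the product of methylation (-0.31 ± 0.049), and the fructose transporter SLC2A5 (-0.31 ± 0.049). ABCC1, an exporter of glutathione conjugates, was at 52.8 ± 2.65 CPM with ATO and 47.3 ± 3.3 CPM in untreated cells and was not called (0.16 ± 0.06, adjusted p = 0.0517, or 0.0458 with the batch as a block). AQP9, an aquaglyceroporin that lets arsenite in, was called higher at 0.186 ± 0.031 CPM with ATO and 0.0281 ± 0.0248 CPM in untreated cells, from 28 reads in all over the 3 ATO libraries and 4 reads over the 3 untreated ones. AQP3, another aquaporin gene of this list, went the other way, with 54 reads over the 3 ATO libraries and 286 over the 3 untreated ones. The arsenic methyltransferase AS3MT had no reads in the ATO libraries and 1, 0 and 2 in untreated ones and could not be tested.

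Lysosomal genes rose broadly. This list was drawn up after GPNMB, ACP5 and other lysosomal genes had been seen among the large changes, so its counts only describe these samples. Of 76 tested members, covering hydrolases, membrane proteins, the proton pump and the transcription factors that drive them, 59 rose and 2 fell (80.3% called), with a median of 0.48. The protease gene CTSD had 184, 187 and 192 CPM with ATO, against 73.3, 72.6 and 67.1 CPM in untreated cells (1.40 ± 0.061, adjusted p = 1.24e-13), with the groups well apart. ASAH1, an acid ceramidase, had 620.4 ± 2.66 CPM with ATO and 327 ± 9.15 CPM in untreated cells (0.92 ± 0.035) and GM2A, the ganglioside activator, 414 ± 7.38 CPM with ATO and 241 ± 7.56 CPM in untreated cells (0.78 ± 0.039). PPT1, a thioesterase, was not called (0.09 ± 0.041). Of the transcription factors of lysosome biogenesis, TFE3 rose by 0.76 ± 0.071, TFEB by 0.42 ± 0.072 and MITF by 0.53 ± 0.10, while TFEC was not called (-0.02 ± 0.083). Among autophagy genes 20 of 36 tested rose and 1 fell (58.3% called, median 0.19), and GABARAPL1, which coats autophagosomes, had 23.7 ± 0.857 CPM with ATO and 9.74 ± 0.398 CPM in untreated cells (1.28 ± 0.066). The lysosomal membrane protein LAMP2 is on both lists (0.34 ± 0.042). The receptor TAX1BP1 was not called (-0.04 ± 0.055).

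The branches of the stress response moved in different directions. Targets of ATF4, the effector of the integrated stress response, were mostly higher, with 25 of 44 tested rising and 2 falling (61.4% called, median 0.26). NUPR1, a small stress-induced chromatin protein, had 199, 201 and 193 CPM with ATO, against 77.1, 81.6 and 73 CPM in untreated cells (1.35 ± 0.056, adjusted p = 4.85e-14). DDIT4, an inhibitor of mTORC1, had 45.5 ± 1.99 CPM with ATO and 20.6 ± 2.55 CPM in untreated cells (1.14 ± 0.086), the serine synthesis gene PSAT1 changed by 0.44 ± 0.045 and the mitochondrial folate enzyme ALDH1L2 by 0.81 ± 0.082. DDIT3 (CHOP), a pro-apoptotic factor of this pathway, had 21.5 ± 1.11 CPM with ATO and 14.2 ± 0.538 CPM in untreated cells (0.60 ± 0.072), ATF3 changed by 0.69 ± 0.14, TRIB3 by 0.49 ± 0.085, CHAC1, which degrades glutathione, by 1.23 ± 0.26 and the asparagine synthetase gene ASNS by 1.04 ± 0.35 at a low level (1.23 ± 0.222 CPM with ATO and 0.597 ± 0.0714 CPM in untreated cells). The ASNS call was lost in 5 of 17 alternative settings, among them leaving out ATO library 1 or 2 or untreated library 1 or 3, and that of CHAC1 in the fit of all 24 libraries. NARS1 was not called (0.01 ± 0.041), and neither was the transcript of ATF4 itself (0.07 ± 0.042).

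Chaperones went the other way. Of 28 heat shock genes tested, 15 fell and 3 rose (64.3% called, median -0.16). FKBP4, a co-chaperone of HSP90, fell by most among the leading members (-0.47 ± 0.05, 183 ± 1.12 CPM with ATO and 254 ± 11.6 CPM in untreated cells), followed by the mitochondrial chaperonin HSPD1 (-0.34 ± 0.038), HSP90AA1 (-0.31 ± 0.045) and HSPA9 (-0.26 ± 0.037). STIP1 was not called (-0.08 ± 0.043). The inducible HSP70 genes HSPA1A and HSPA1B were not tested, with at most 2 reads in any of the 6 libraries. These copies are nearly identical, so their counts are uncertain, and how reads with several matches were treated is not given in the sources used here. In the endoplasmic reticulum 10 of 24 tested chaperones and unfolded protein response genes fell and 2 rose (50% called, median -0.09). HSPA5 (BiP) had 533, 565 and 578 CPM with ATO, against 811, 853 and 845 CPM in untreated cells (-0.58 ± 0.038, adjusted p = 1.08e-10), and HSP90B1 (-0.66 ± 0.045), CALR (-0.40 ± 0.035) and HYOU1 (-0.40 ± 0.042) fell too. P4HB was not called (-0.05 ± 0.043).

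Among AP-1 and immediate early genes 10 of 27 tested rose and 3 fell (48.1% called, median 0.21). JUN had 24.7 ± 2.2 CPM with ATO and 12.7 ± 0.893 CPM in untreated cells (0.96 ± 0.081), BTG2, an antiproliferative gene, 10.4 ± 0.365 CPM with ATO and 4.99 ± 0.528 CPM in untreated cells (1.05 ± 0.081), and KLF10 (0.65 ± 0.062) and the phosphatase gene DUSP4 (0.61 ± 0.071) rose. DUSP6 was not called (0.19 ± 0.072, adjusted p = 0.0575, or 0.0478 with the batch as a block), and FOS was lower (-0.47 ± 0.15), a call lost in 5 of 17 alternative settings, among them leaving out ATO library 2 or 3 or untreated library 1 or 2.

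Myeloid genes changed in both directions. Of 20 primary granule genes tested, 7 rose and 6 fell (65% called, median 0.19). Of the enzymes that mark the promyelocyte, MPO and PRTN3 were lower and ELANE was not called. MPO, the myeloperoxidase, had 1149, 1147 and 1088 CPM with ATO, against 2178, 2288 and 2041 CPM in untreated cells (-0.94 ± 0.066, adjusted p = 3.87e-10) and PRTN3, proteinase 3, had 501, 486 and 466 CPM with ATO, against 1091, 1216 and 1042 CPM in untreated cells (-1.20 ± 0.083). In neither gene did the groups overlap. ELANE, the neutrophil elastase of the same granules, was at 179 ± 12.1 CPM with ATO and 163 ± 15.8 CPM in untreated cells and was not called (0.14 ± 0.089, adjusted p = 0.264). CST7, a cathepsin inhibitor, rose (0.89 ± 0.064, 213 ± 3.49 CPM with ATO and 115 ± 4.18 CPM in untreated cells), as did the defensin gene DEFA4 at a low level (1.98 ± 0.20, 5.61 ± 0.844 CPM with ATO and 1.43 ± 0.326 CPM in untreated cells). DEFA4 has close paralogs, so its count is uncertain. Among specific and gelatinase granule genes 5 of 10 tested rose and 1 fell (60% called, median 0.38), and the haptoglobin gene HP had 36.4 ± 1.61 CPM with ATO and 11.5 ± 1.57 CPM in untreated cells (1.66 ± 0.078), MMP25 changed by 1.01 ± 0.14, ORM1 by 0.59 ± 0.10 and PADI4 by 1.12 ± 0.21. ORM1 has a near-identical copy, so its count is uncertain too. CHI3L1, the uncalled member with the highest level, was at 2218 ± 77.3 CPM with ATO and 2082 ± 140.4 CPM in untreated cells (0.09 ± 0.045). The lactoferrin gene LTF had 10, 10 and 16 reads with ATO, against 0, 2 and 0 reads in untreated cells.

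Receptors of mature myeloid cells were more often higher, with 16 of 36 tested rising and 3 falling (52.8% called, median 0.41). TREM1, an activating receptor of neutrophils and monocytes, had 25.7, 25.4 and 27.8 CPM with ATO, against 6.99, 7.22 and 6.73 CPM in untreated cells (1.91 ± 0.064). ITGAX (CD11c) had 14.9 ± 2.39 CPM with ATO and 5.37 ± 0.556 CPM in untreated cells (1.47 ± 0.10) and ITGAM (CD11b), the usual marker of myeloid maturation, 9.8 ± 1.04 CPM with ATO and 6.55 ± 0.731 CPM in untreated cells (0.58 ± 0.11). The adaptor TYROBP rose (0.92 ± 0.083). CD14, the monocyte marker, was at 1.29 ± 0.393 CPM with ATO and 0.905 ± 0.111 CPM in untreated cells and was not called (0.51 ± 0.27, adjusted p = 0.175), nor was CSF3R (0.01 ± 0.056). Subunits of the NADPH oxidase, which makes superoxide in phagocytes, rose. CYBB, the catalytic subunit, had 338, 343 and 343 CPM with ATO, against 191, 187 and 203 CPM in untreated cells (0.82 ± 0.044, adjusted p = 5.04e-12), NCF4 changed by 0.40 ± 0.058 and NCF1 by 1.61 ± 0.069. NCF1 shares its sequence with the pseudogenes NCF1B and NCF1C, so its level is uncertain. Over the oxidase and its partners 10 of 14 tested rose and none fell (71.4% called, median 0.26), and PIK3CG was not called (-0.09 ± 0.048). Of 10 S100 genes tested 6 rose and none fell (60% called, median 0.99), with S100A11 (211 ± 3.18 CPM with ATO and 117 ± 9.94 CPM in untreated cells, 0.85 ± 0.062) the most abundant, S100A6 at 0.65 ± 0.066, S100A9 at 1.67 ± 0.14 and S100P at 1.65 ± 0.18. S100A10 was not called (-0.26 ± 0.15).

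Myeloid transcription factors gave 12 rises and 7 falls among 38 tested (50% called, median 0.05). ID2, an inhibitor of helix-loop-helix factors, had 20.2 ± 0.821 CPM with ATO and 5.77 ± 0.529 CPM in untreated cells (1.80 ± 0.081), and PPARG, a nuclear receptor, 39.2 ± 2.49 CPM with ATO and 21.3 ± 0.624 CPM in untreated cells (0.88 ± 0.066). CEBPB and CEBPE, which act late in granulocyte and monocyte development, rose by 0.99 ± 0.11 and 0.59 ± 0.085. IRF8 fell (-0.59 ± 0.058, 79.3 ± 3.41 CPM with ATO and 119.5 ± 2.43 CPM in untreated cells). CEBPA was not called (0.09 ± 0.066).

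Antigen presentation genes moved in both directions, with more falls than rises. Of 18 class I genes tested 8 fell and 2 rose (55.6% called, median -0.09). Beside HLA-B, the class I genes HLA-E (-0.64 ± 0.062), HLA-C (-0.90 ± 0.13) and B2M (-0.34 ± 0.038), which encodes the common light chain, fell. B2M had 979 ± 14.5 CPM with ATO and 1237 ± 30.6 CPM in untreated cells. The HLA genes are polymorphic and close paralogs, so their levels are uncertain. PSME2 was not called (0.10 ± 0.056). In class II 8 of 12 tested fell and 2 rose (83.3% called, median -0.34). CD74, the invariant chain, had 322, 298 and 286 CPM with ATO, against 501, 527 and 482 CPM in untreated cells (-0.74 ± 0.063, adjusted p = 8.16e-09), HLA-DPA1 changed by -1.32 ± 0.10 and HLA-DPB1 by -0.76 ± 0.13, whereas the protease gene CTSS, also counted among lysosomal genes, rose (0.45 ± 0.049). RFXANK was not called (0.05 ± 0.076).

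Interferon-stimulated genes were more often higher. Of 40 tested 20 rose and 4 fell (60% called, median 0.27), among them OAS3 (15.2 ± 0.43 CPM with ATO and 6.2 ± 1.41 CPM in untreated cells, 1.29 ± 0.12), STAT2 (0.52 ± 0.063), PARP14 (0.47 ± 0.068) and PARP9 (0.58 ± 0.085), while LAP3 was not called (-0.01 ± 0.052). Chemokines and cytokines gave 12 rises and 2 falls of 24 tested (58.3% called, median 0.33). IL18 had 8.78 ± 0.513 CPM with ATO and 3.52 ± 0.531 CPM in untreated cells (1.33 ± 0.12), CXCL16 5.58 ± 0.449 CPM with ATO and 1.34 ± 0.76 CPM in untreated cells (2.07 ± 0.20) and VEGFA 294 ± 4.83 CPM with ATO and 221 ± 6.23 CPM in untreated cells (0.41 ± 0.044), with CSF1 at 1.54 ± 0.19 and TGFB1 not called (0.09 ± 0.10). Among NF-kB subunits and feedback genes 5 of 19 rose and 3 fell (42.1% called, median 0.13), led by TNFAIP2 (0.97 ± 0.065).

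MYC and most ribosome biogenesis factors fell. MYC, which HL-60 cells carry in extra copies, had 466, 457 and 446 CPM with ATO, against 649, 706 and 626 CPM in untreated cells (-0.53 ± 0.051, adjusted p = 5.23e-08), and the antagonist MXD4 rose (0.74 ± 0.13); over the MYC and MAX network 3 of 12 rose and 3 fell (50% called, median 0.11). Ribosome biogenesis factors fell almost throughout, with 34 of 38 tested called lower and none higher (89.5% called, median -0.28). NCL, nucleolin, had 1736 ± 11.7 CPM with ATO and 2305 ± 26.4 CPM in untreated cells (-0.41 ± 0.035), the helicase gene DDX21 605, 594 and 593 CPM with ATO, against 850.2, 836 and 883 CPM in untreated cells (-0.52 ± 0.046), NOP14 changed by -0.50 ± 0.044, LYAR by -0.50 ± 0.052 and NPM1, nucleophosmin, by -0.18 ± 0.031. UTP4 was not called (-0.02 ± 0.045). The proteins of the ribosome itself moved the other way by little, 23 of 78 higher and 2 lower (32.1% called, near the share of all genes, median 0.09). Their counts made up 7.9% ± 0.163 of each library with ATO and 7.27% ± 0.407 in untreated cells (SD, n = 3 each; exact two-sided permutation p = 0.1).

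Mitochondrially encoded mRNAs were lower. Of 13, 12 fell and none rose (92.3% called, median -0.51). MT-CO3, a subunit of cytochrome oxidase, had 3001, 3386 and 3056 CPM with ATO, against 5267, 5264 and 5030.0 CPM in untreated cells (-0.72 ± 0.052, adjusted p = 7.03e-10), MT-ATP6 changed by -0.70 ± 0.057, MT-ND2 by -0.65 ± 0.055, MT-CYB by -0.59 ± 0.053 and MT-CO1 by -0.23 ± 0.046, a call lost in the fit of all 24 libraries. MT-CO2 was not called (-0.12 ± 0.053). All counts on the mitochondrial genome made up 4.76%, 4.82% and 4.46% of the ATO libraries, against 6.33%, 5.79% and 5.81% of the untreated ones (exact two-sided permutation p = 0.1). Genes of the machinery that copies and reads this genome gave 12 falls and no rise among 28 tested (42.9% called, median -0.19), among them TFB2M (-0.37 ± 0.058), a transcription factor of mitochondria. Nuclear genes of the respiratory chain did not share the fall, with 9 of 61 higher and 3 lower (19.7% called, under the share of all genes).

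Most cell cycle genes were not called, and the list medians were near 0. Of 43 genes for DNA replication and nucleotide supply 13 fell and 2 rose (34.9% called, median -0.06). After MCM7, the leading falls were in RRM2, a ribonucleotide reductase subunit (-0.31 ± 0.041), CLSPN (-0.35 ± 0.063) and CDC6 (-0.26 ± 0.048), and PCNA was not called (-0.09 ± 0.042). Of 39 genes of G2 and mitosis 10 fell and none rose (25.6% called, median -0.10), including CENPF (-0.59 ± 0.11), MKI67 (-0.28 ± 0.063, 622 ± 16.6 CPM with ATO and 753 ± 73.3 CPM in untreated cells), KIF11 (-0.30 ± 0.073) and MAD2L1 (-0.22 ± 0.048), while ASPM was not called (-0.25 ± 0.11, adjusted p = 0.0955, or 0.0427 with the batch as a block). Among G1 regulators 8 of 28 fell and 3 rose (39.3% called, median -0.05). CDK6 had 161, 155 and 156 CPM with ATO, against 229.5, 221 and 252 CPM in untreated cells (-0.57 ± 0.061), SKP2 changed by -0.40 ± 0.048, CCND2 by -0.90 ± 0.10 and CCND1, at a low level, by -0.96 ± 0.12. CDK4 was not called (-0.05 ± 0.05), and the CDK inhibitor gene CDKN1A, at 2.17 ± 0.498 CPM with ATO and 1.5 ± 0.264 CPM in untreated cells, was not called either (0.54 ± 0.24, adjusted p = 0.105).

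DNA repair and checkpoint genes are the subject of the series. In 4 of the 7 lists the share called was under that of all genes. Homologous recombination had 6 falls and 1 rise among 33 tested (21.2% called, median -0.12), the Fanconi anaemia pathway 3 falls and 1 rise among 20 (20% called), nucleotide excision repair 1 fall and 2 rises among 23 (13% called) and damage checkpoint genes 5 falls and no rise among 27 (18.5% called, median -0.12), against 28.7% of all genes. Mismatch repair stood near it, with 3 falls and 2 rises among 15 (33.3% called), as did non-homologous end joining, with 6 falls and 1 rise among 20 (35% called, median -0.18). Base excision and single-strand break repair had 8 falls and 4 rises among 26 (46.2% called, median 0). HMGB1 (-0.33 ± 0.035), the ligase gene LIG3 (-0.43 ± 0.056), the abasic site endonuclease gene APEX1 (-0.34 ± 0.047) and PARP1, which senses strand breaks (-0.20 ± 0.037, 632 ± 10.2 CPM with ATO and 725 ± 17.8 CPM in untreated cells), fell, and MBD4 was not called (0.00 ± 0.058). In homologous recombination the helicase gene BLM (-0.32 ± 0.054), RAD54L (-0.38 ± 0.066) and EXO1 (-0.20 ± 0.052) fell and EME1 rose (0.36 ± 0.074), while BRCA1 was at 148 ± 2.6 CPM with ATO and 153 ± 17.3 CPM in untreated cells and was not called (-0.05 ± 0.074, adjusted p = 0.645). Of the checkpoint kinases ATR fell (-0.49 ± 0.076, 61.6 ± 0.611 CPM with ATO and 86.6 ± 6.11 CPM in untreated cells) and WEE1 fell (-0.16 ± 0.047), a call lost in 3 of 17 alternative settings, among them leaving out ATO library 1 or untreated library 3, while CHEK1 (-0.05 ± 0.051, adjusted p = 0.493) and ATM (-0.21 ± 0.078, adjusted p = 0.0524, or 0.0192 with the batch as a block) were not called.

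Genes of cell death were higher more often than lower. In the BCL2 family 7 of 17 tested rose and 2 fell (52.9% called, median 0.11). The pro-survival gene BCL2A1 (1.65 ± 0.10, 10.1 ± 0.683 CPM with ATO and 3.21 ± 0.465 CPM in untreated cells) and the pro-apoptotic BMF (1.36 ± 0.09, 27.2 ± 1.32 CPM with ATO and 10.6 ± 1.85 CPM in untreated cells) both rose, as did BNIP3L (0.72 ± 0.07) and BCL2L1 (0.65 ± 0.075). BCL2 fell, with 94, 92.6 and 103 CPM with ATO, against 135, 137 and 148 CPM in untreated cells (-0.54 ± 0.062), and MCL1 was not called (-0.04 ± 0.042, adjusted p = 0.567). Among death receptors, caspases and their inhibitors 13 of 32 rose and 5 fell (56.2% called, median 0.16), led by CASP4, an inflammatory caspase (0.56 ± 0.051). Targets of p53 gave 9 rises and 4 falls of 27 (48.1% called, median 0.13). PMAIP1 (0.56 ± 0.072), SESN2 (0.69 ± 0.10) and TP53INP1 (1.48 ± 0.27) rose, and CCNG1 was not called (0.13 ± 0.057).

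PML, the protein that arsenic binds, is the core of nuclear bodies. Its transcript had 30.9, 33.2 and 31.3 CPM with ATO, against 33.3, 34.3 and 28 CPM in untreated cells (0.00 ± 0.082, adjusted p = 0.992), so it was not called, and the groups overlapped. SP100, a partner in these bodies, rose by 0.16 ± 0.058 (adjusted p = 0.0492), a call lost in 13 of 17 alternative settings, including each left-out library other than untreated library 3, and its paralog SP140 by 1.22 ± 0.10. Over PML bodies and the SUMO pathway 7 of 28 tested rose and 5 fell (42.9% called, median -0.01), and SUMO2 was not called (-0.12 ± 0.053). Retinoid receptors and retinoic acid enzymes gave 4 rises and 1 fall of 19 (26.3% called). Of the remaining lists, glycolysis and hypoxia genes had 11 rises and 3 falls of 36 (38.9% called), with LDHA (-0.52 ± 0.036) and HK2 (-0.52 ± 0.05) lower and HK1 higher (0.63 ± 0.063). Cholesterol and fatty acid synthesis had 8 rises and 6 falls of 39 (35.9% called), proteasome and stress-linked ubiquitin genes 7 rises of 38 (18.4% called), among them the polyubiquitin gene UBB (0.51 ± 0.057), and replication histones 1 rise of 9 (11.1% called).

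**Figure D4:**
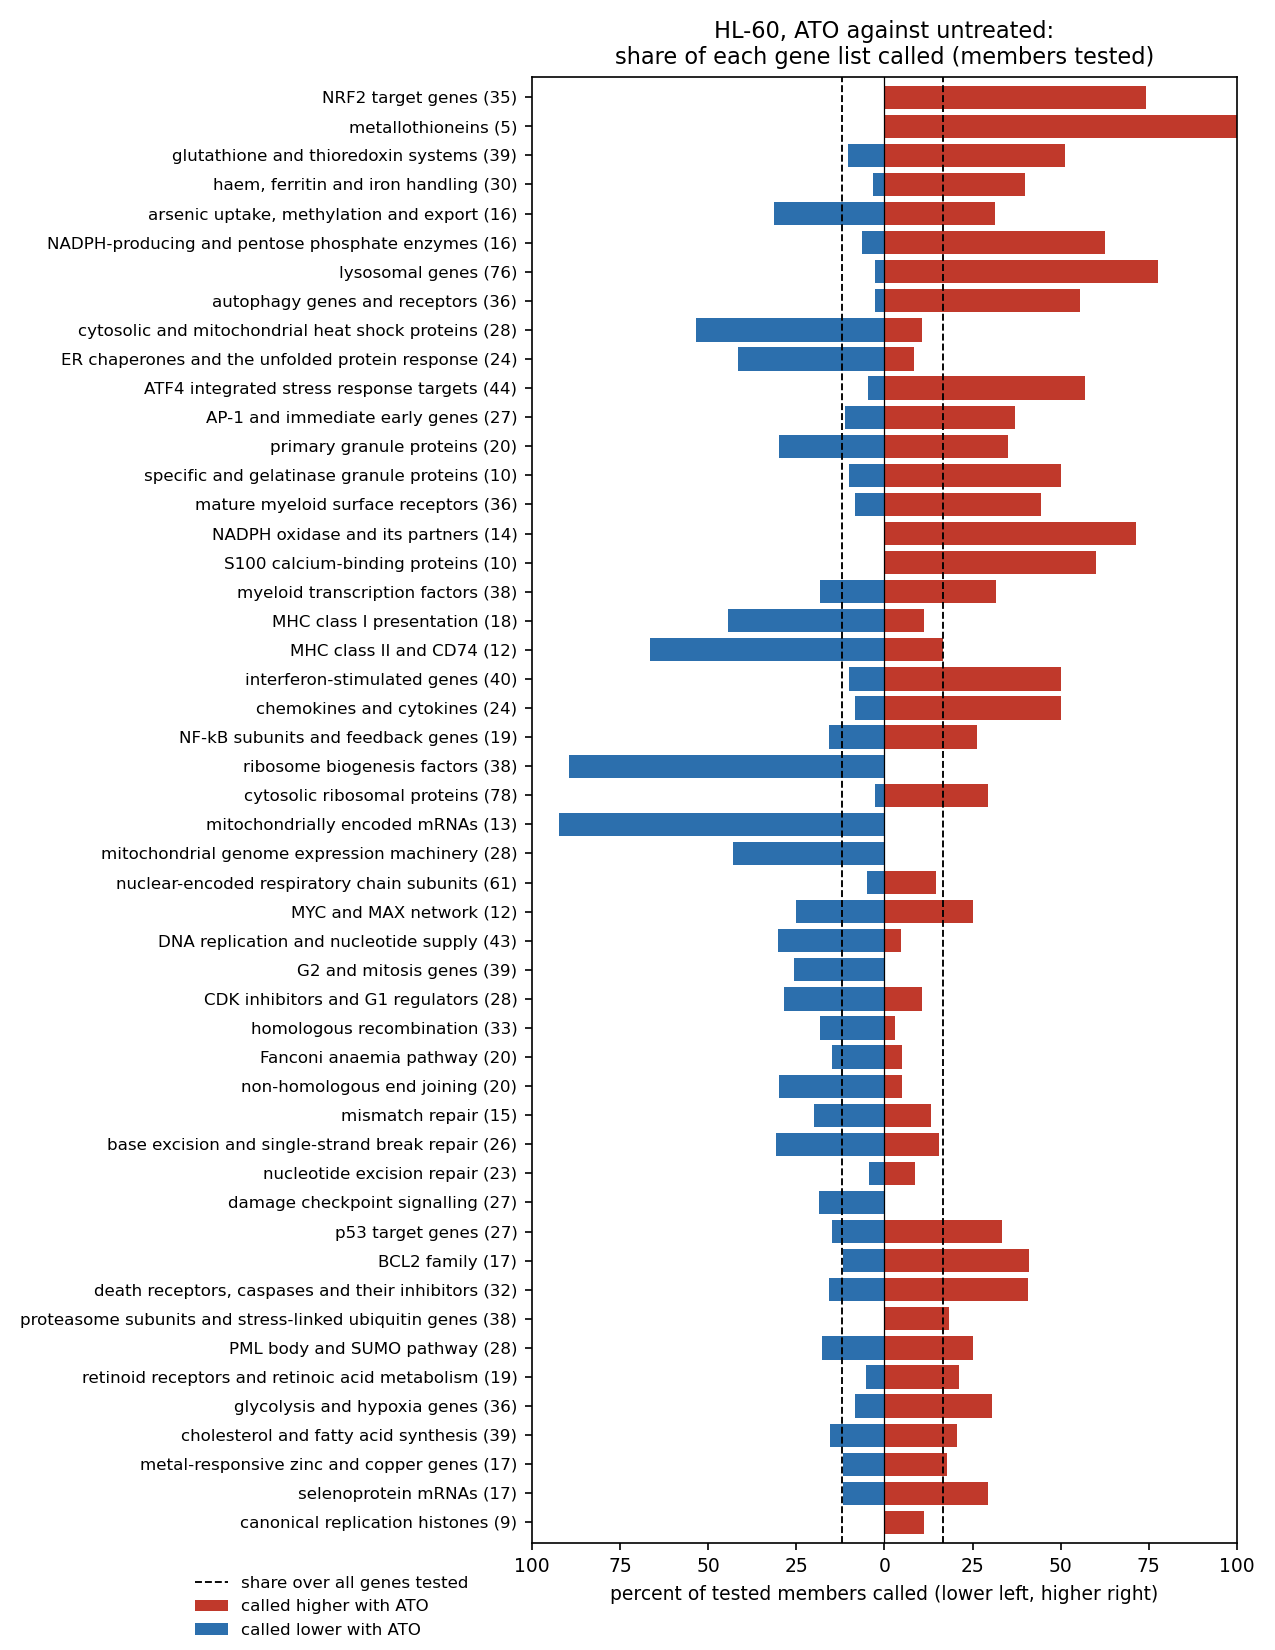
Percent of the tested members of each gene list that were called higher (red, right) and lower (blue, left) with ATO, with the number tested in brackets; dashed lines mark the shares over all 15895 genes, 16.5% higher and 12.1% lower. NRF2 targets, metallothioneins and lysosomal genes lie to the right, ribosome biogenesis factors and mitochondrially encoded mRNAs to the left.

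Whether this response is particular to HL-60 was asked by testing, gene by gene, the ATO response in HL-60 minus that in NB4 over all 24 libraries. The difference was called for 2349 of 17930 genes (13.1%), 1075 of them with a response higher in HL-60 (6%) and 1274 with a lower one (7.11%). In this joint fit 4016 genes were called for ATO in HL-60 (22.4%) and 6829 in NB4 (38.1%). Both lines called 2784 genes, 2618 of them in the same direction, which is 65.2% of the HL-60 calls and 38.3% of the NB4 calls. The other 166 were called in opposite directions. Across the 10500 genes that reached 5 CPM in any of the 4 groups, which are not independent replicates, the responses had a Pearson correlation of 0.526 and a Spearman correlation of 0.603. Both responses come from this same fit, with its filter, scaling and estimate of the spread. They contrast different libraries but share the drug, dose and sequencing.

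HMOX1 rose in both lines, by 6.32 ± 0.15 on the log2 scale in HL-60 and 5.65 ± 0.20 in NB4, and the difference was not called (0.67 ± 0.40, adjusted p = 0.316). NQO1 differed most clearly among NRF2 targets. It averaged 213 ± 17.8 CPM with ATO and 46 ± 1.14 CPM untreated in HL-60, against 41.7 ± 4.15 CPM with ATO and 42.7 ± 0.312 CPM untreated in NB4, and the difference of the log2 changes was 2.25 ± 0.10 (adjusted p = 1.23e-16). FTH1 (1.50 ± 0.094), GCLM (0.64 ± 0.10), SLC7A11 (0.88 ± 0.15) and TXNRD1 (0.33 ± 0.064) also responded by more in HL-60. SLC48A1 (-0.53 ± 0.11) and TKT (-0.42 ± 0.085) responded by less. Of the 35 NRF2 targets 20 differed between the lines, 14 with a positive difference and 6 with a negative one, and the list's median was 0.51 in NB4, where 23 rose and 4 fell. MT2A rose by more in HL-60 (0.68 ± 0.16) and MT1X by less (-0.99 ± 0.22). For GPNMB the difference was -0.11 ± 0.12 and was not called (adjusted p = 0.64).

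The myeloid response differed between the lines in both directions. Of the 38 receptors of mature myeloid cells tested in both lines 16 differed (42.1%, against 13.1% of all genes), 2 with a positive difference and 14 with a negative one. ITGAM changed by 0.56 ± 0.10 in HL-60 and 1.60 ± 0.10 in NB4, a difference of -1.03 ± 0.14 (adjusted p = 3.14e-06), and FGR by 2.23 ± 0.10 in HL-60 and 5.04 ± 0.17 in NB4, a difference of -2.81 ± 0.23. The differences for CEBPB (-0.68 ± 0.16) and CEBPE (-0.44 ± 0.11) were negative too, as were those for PRTN3 (-1.51 ± 0.14) and IRF8 (-1.52 ± 0.19), which fell in HL-60 and rose in NB4. Other myeloid genes responded by more in HL-60. TREM1 differed by 1.90 ± 0.21 (adjusted p = 7.89e-08), PPARG by 2.15 ± 0.21, HP by 0.87 ± 0.21, MMP25 by 0.91 ± 0.25 and S100A11 by 0.57 ± 0.10. CST7 differed by 0.41 ± 0.13, a call lost in 6 of 11 settings, 5 of them the leaving out of an HL-60 library other than untreated library 2. Among myeloid transcription factors 18 of 40 differed, 9 in each direction, and among primary granule genes 11 of 21, with 4 positive and 7 negative. Of the 14 NADPH oxidase genes 13 differed, 2 positive and 11 negative, with medians of 0.26 in HL-60 and 0.87 in NB4. MPO fell by more in HL-60 (-0.64 ± 0.11), and MYC (0.26 ± 0.087, adjusted p = 0.0443, or 0.0526 with the batch as a block, and lost without any 1 HL-60 library other than untreated library 2), MCM7 (0.46 ± 0.077), NPM1 (0.54 ± 0.075) and BCL2 (1.08 ± 0.12) by less. ATF4 targets had a median of 0.26 in HL-60, where 25 rose and 2 fell, and of -0.01 in NB4, where 10 rose and 16 fell, and 15 of 44 differed between the lines, 14 of them with a positive difference. Class I genes had medians of -0.09 in HL-60 and 0.37 in NB4, and 12 of 18 differed, all negative. For the NADPH oxidase, ATF4 and class I lists, the HL-60 medians and calls come from the fit of the HL-60 libraries alone. The NB4 medians and calls come from the joint fit of both lines, so the values of the lines are not strictly alike. The counts of genes that differed are tests within the joint fit. HLA-B itself averaged 0.517 ± 0.168 CPM with ATO and 0.582 ± 0.125 CPM untreated in NB4, a low level, with a difference of -2.54 ± 0.33. Most ribosome biogenesis factors and mitochondrially encoded mRNAs fell in both lines, with 34 of 38 and 13 of 13 called lower in NB4, and 7 and 1 of them differed.

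**Figure D5:**
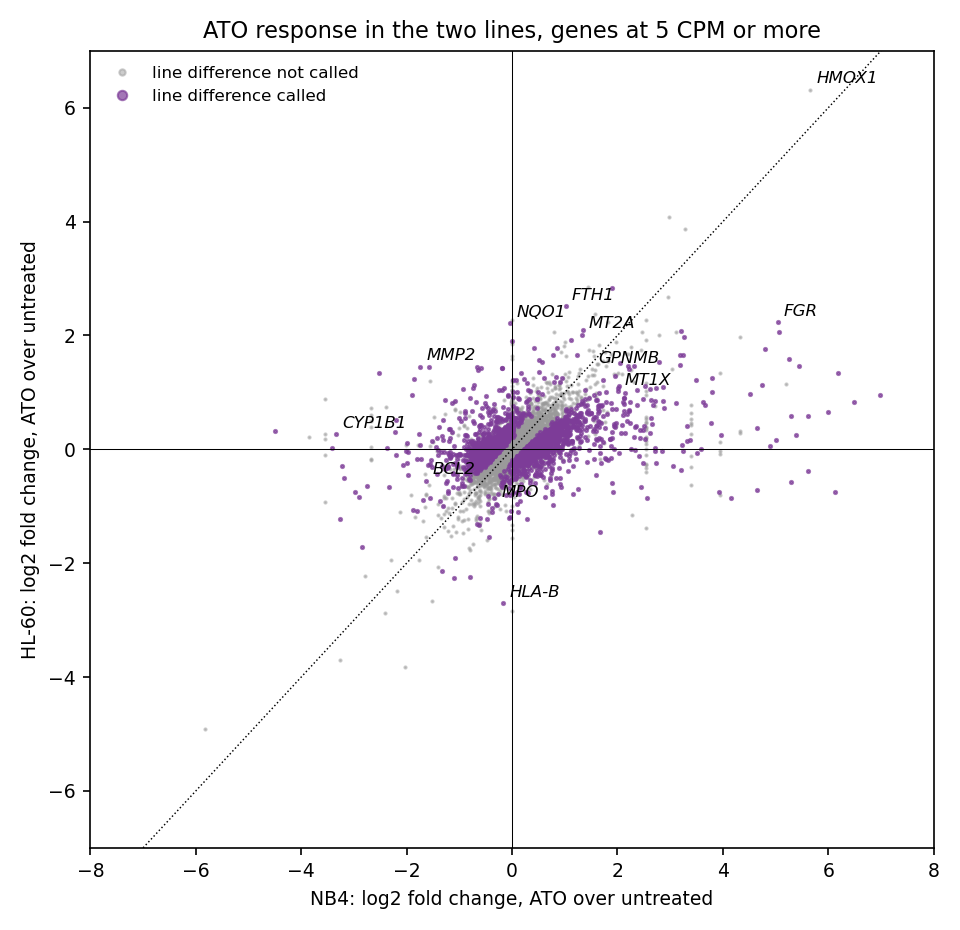
Log2 fold change (ATO over untreated) in HL-60 (vertical axis) against that in NB4 (horizontal axis) for the 10500 genes at 5 CPM or more in any of the 4 groups; purple points are the 2084 of them with a called difference, and the dotted line marks equal change. Columns of points at one NB4 value are genes with few or no NB4 reads, whose fitted values have no firm size. HMOX1 is near the dotted line, NQO1 and HLA-B lie off it.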

How the data were processed

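Poly(A)-selected RNA of HL-60 and NB4 cells was sequenced as paired 150 bp reads, per the labels' protocols. The authors deposited 1 table of raw counts per gene for all 24 libraries. The submitters' processing notes name fastp, HISAT2, GRCh38, featureCounts and DESeq2. Their versions, the annotation release, strandedness and the treatment of reads with several matches are not given in the sources that were used. Counts of 1 to 9 were even in 74.4% of cases, against 51.5% of counts of 500 or more, so mates may have been counted singly and halved counts were tried. No strand is marked by the kit named, so a gene and an antisense neighbour cannot be told apart. Library totals ranged from 41805150 to 53023035 in the 6 libraries compared. Of 60655 gene IDs, 58437 matched GENCODE v29, which gave the positions.

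Counts as deposited were tested with edgeR 4.0.16 (R 4.3.3; filterByExpr, TMM, quasi-likelihood F test, Benjamini-Hochberg adjustment, threshold 0.05) on the 12 HL-60 libraries, with 8 residual degrees of freedom and a biological coefficient of variation of 7%. The line difference was an interaction over all 24 libraries. A standard error is the log2 change over the square root of F. CPM use TMM-scaled library sizes of the respective fit. Promoters came from RefSeq (GRCh38.p14). Scripts were tested on simulated data. Single values per library were compared with an exact permutation test.

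The labels number each group's libraries as batches 1 to 3, and this number is taken as the pairing. Residuals of same-batch ATO and untreated libraries correlated at 0.067 to 0.127, against -0.117 to 0.0153 for ATO and untreated libraries of different batches. Over all 18 same-batch HL-60 pairs the range was -0.113 to 0.459, against -0.518 to 0.446 between batches. The main test had no batch term.

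Members and lists were chosen with earlier results of these data known. Named genes are a panel of marker genes, the 8 largest called changes each way among protein-coding genes at 5 CPM or more with the same sign in all batches, the 5 smallest p-values each way, 4 leading members and the most abundant uncalled member of a list, and the 5 largest line differences each way. GCLC, GSR, NFE2L2, KEAP1, MAFG, BACH1, MT1G, ATF4, TFEB, MITF, TFEC and FOS, and the genes given only by raw reads, were named after their values were seen. Some genes that these rules name are not reported here. Alternatives were DESeq2's size factors, library sizes alone, DESeq2 1.42.0, limma-voom 3.58.1, other filters on low counts, the batch as a block, a threshold of 0.01, only the 6 libraries, all 24 libraries, halved counts and each library left out.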

Additional observations from a re-analysis of the deposited data

Results flagged for a closer look

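The ATO response differed between HL-60 and NB4 for 113 of 271 named genes looked at, by the test of the difference itself (HL-60 response minus NB4 response, log2, with its standard error, edgeR, adjusted p below 0.05). The difference was positive for 65 and negative for 48, and 18 were called in opposite directions in the 2 lines. Over all genes tested, the difference was called for 2349 of 17930 (13.1%). The named genes include those picked for the largest line differences, and others picked for large changes or small p-values in HL-60. Their counts therefore describe the named genes only and give no rate for the lines.

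Among stress, metal and iron genes the difference was positive for NQO1 (2.25 ± 0.10), FTH1 (1.50 ± 0.094), ME1 (0.93 ± 0.11), SLC7A11 (0.88 ± 0.15), NFE2L2 (0.71 ± 0.092), MT2A (0.68 ± 0.16), GCLM (0.64 ± 0.10), SQSTM1 (0.43 ± 0.11), BACH1 (0.35 ± 0.12), TXNRD1 (0.33 ± 0.064) and FTL (0.27 ± 0.092). It was negative for MT1X (-0.99 ± 0.22), SLC2A5 (-0.65 ± 0.073), SLC48A1 (-0.53 ± 0.11), TKT (-0.42 ± 0.085), ABCC1 (-0.27 ± 0.091) and MAFG (-0.25 ± 0.083). In the thioredoxin, glutathione and selenium systems it was positive for TXNIP (0.60 ± 0.094), SELENOI (0.49 ± 0.11), MGST1 (0.23 ± 0.069) and PRDX3 (0.22 ± 0.066) and negative for MSRB1 (-0.35 ± 0.11). For iron uptake TFRC differed by 0.71 ± 0.085. SLC7A11 changed by 0.47 ± 0.11 in HL-60 and by -0.41 ± 0.11 in NB4, and TXNIP by 0.35 ± 0.067 in HL-60 and by -0.25 ± 0.066 in NB4, so both went in opposite directions.

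Among ATF4 targets and early response genes it was positive for JUN (2.84 ± 0.28), DDIT4 (1.85 ± 0.18), ATF3 (1.58 ± 0.26), DUSP4 (1.03 ± 0.19), DDIT3 (0.66 ± 0.12), PSAT1 (0.50 ± 0.082) and NARS1 (0.47 ± 0.092). JUN changed by 0.95 ± 0.16 in HL-60 and by -1.89 ± 0.23 in NB4, DDIT4 by 1.13 ± 0.13 in HL-60 and by -0.72 ± 0.12 in NB4, ATF3 by 0.68 ± 0.18 in HL-60 and by -0.90 ± 0.19 in NB4, and DUSP4 by 0.60 ± 0.11 in HL-60 and by -0.44 ± 0.16 in NB4. Chaperone genes had small positive differences, namely HSPA5 (0.36 ± 0.069), HSP90AA1 (0.36 ± 0.11), HSP90B1 (0.36 ± 0.10), CALR (0.28 ± 0.067) and HSPD1 (0.25 ± 0.073). So did the lysosomal genes ASAH1 (0.89 ± 0.08), GM2A (0.46 ± 0.068) and PPT1 (0.20 ± 0.065), whereas the transcription factor gene TFEC had a negative one (-2.88 ± 0.30).

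Among myeloid genes it was negative for NCF1 (-3.66 ± 0.19), FGR (-2.81 ± 0.23), S100A9 (-1.59 ± 0.31), IRF8 (-1.52 ± 0.19), PRTN3 (-1.51 ± 0.14), DEFA4 (-1.29 ± 0.25), TYROBP (-1.21 ± 0.18), ITGAM (-1.03 ± 0.14), PIK3CG (-0.90 ± 0.075), ITGAX (-0.85 ± 0.16), CSF3R (-0.75 ± 0.10), CEBPB (-0.68 ± 0.16), MPO (-0.64 ± 0.11), NCF4 (-0.54 ± 0.11), CYBB (-0.51 ± 0.082) and CEBPE (-0.44 ± 0.11). It was positive for PPARG (2.15 ± 0.21), TREM1 (1.90 ± 0.21), CCR2 (1.15 ± 0.33), MMP25 (0.91 ± 0.25), HP (0.87 ± 0.21), S100A11 (0.57 ± 0.10), CST7 (0.41 ± 0.13) and CHI3L1 (0.34 ± 0.084). PRTN3 and IRF8 fell in HL-60 and rose in NB4, and PPARG rose in HL-60 and fell in NB4. Antigen presentation genes had negative differences, with CD74 (-4.67 ± 0.32), HLA-B (-2.54 ± 0.33), HLA-C (-1.06 ± 0.21), HLA-E (-0.81 ± 0.12) and PSME2 (-0.52 ± 0.079), and CD74 averaged 0.939 ± 0.0671 CPM with ATO and 0.0601 ± 0.029 CPM untreated in NB4, a low level. Interferon-stimulated, cytokine and NF-kB genes did too, with CXCL16 (-3.00 ± 0.91), PARP14 (-1.78 ± 0.21), ICAM1 (-1.15 ± 0.25), OAS3 (-0.67 ± 0.18), TNFAIP2 (-0.58 ± 0.12), TGFB1 (-0.52 ± 0.15) and PARP9 (-0.44 ± 0.12), and CXCL16 averaged 0.584 ± 0.108 CPM with ATO and 0.0156 ± 0.027 CPM untreated in NB4. PML was not called in HL-60 (-0.01 ± 0.076) and rose in NB4 (0.46 ± 0.073), a difference of -0.47 ± 0.11. HIPK2 (0.56 ± 0.11) and RNF111 (0.25 ± 0.073), from the list of PML bodies and the SUMO pathway, had positive ones.

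Of genes for growth, cell cycle and repair it was positive for NPM1 (0.54 ± 0.075), MXD1 (0.47 ± 0.13), MCM7 (0.46 ± 0.077), SHLD2 (0.46 ± 0.11), EXO1 (0.32 ± 0.10), HMGB1 (0.32 ± 0.081), MXI1 (0.31 ± 0.10), MYC (0.26 ± 0.087) and NCL (0.25 ± 0.072) and negative for CCND1 (-0.69 ± 0.12). Of cell death genes it was positive for BCL2 (1.08 ± 0.12), BMF (0.84 ± 0.15), PMAIP1 (0.49 ± 0.13) and CYCS (0.30 ± 0.078) and negative for TNFRSF1B (-2.32 ± 0.42) and TP53INP1 (-5.34 ± 1.27). TP53INP1 had no reads in untreated NB4 cells, so its fitted value gives no size. Of metabolic and retinoid genes it was positive for ALDH1A1 (1.62 ± 0.47), HMGCS1 (0.90 ± 0.13), SCD (0.31 ± 0.085) and PNPT1 (0.28 ± 0.094) and negative for HK1 (-1.19 ± 0.13) and DHRS9 (-0.52 ± 0.13). Of the genes with large changes in HL-60, VWA5A (0.94 ± 0.30) and TM6SF1 (0.75 ± 0.23) had positive differences, and UNCX (-0.83 ± 0.23) a negative one.

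Of the largest positive differences, CYP1B1, an oestrogen-metabolising cytochrome P450 (3.60 ± 0.15), averaged 43 ± 1.7 CPM with ATO and 35.9 ± 1.72 CPM untreated in HL-60, against 2.58 ± 0.303 CPM with ATO and 26.1 ± 0.709 CPM untreated in NB4. MMP2, a matrix protease (3.20 ± 0.18), averaged 93.5 ± 5.06 CPM with ATO and 34.1 ± 2.71 CPM untreated in HL-60, against 2.63 ± 0.687 CPM with ATO and 8.81 ± 0.393 CPM untreated in NB4. P4HTM (4.81 ± 1.63), KCNJ5 (3.85 ± 0.98) and CHST2 (3.43 ± 0.64) were under 1 CPM in both NB4 groups. The largest negative ones, LDLRAD4 (-6.89 ± 1.10), IL12RB1 (-6.03 ± 1.06), METTL7B (-5.99 ± 1.26), NEFH (-5.86 ± 1.04) and DAPK1 (-5.66 ± 1.01), had 0 reads in all 3 untreated NB4 libraries and between 0.106 ± 0.0261 CPM and 0.345 ± 0.0741 CPM in NB4 cells with ATO, so these fitted values depend on the prior count and give no size.

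Of these 113 calls 26 were lost in at least 1 of 11 settings, named here with the highest adjusted p where lost. MAFG (0.214) and MXI1 (0.111) lost theirs in 8 settings, and ABCC1 (0.188), MYC (0.118), P4HTM (0.0653) and PPT1 (0.175) in 7. BACH1 (0.125), CST7 (0.0739) and FTL (0.149) lost theirs in 6, and PNPT1 (0.165) and PRDX3 (0.117) in 5. MGST1 (0.103) and RNF111 (0.0937) lost theirs in 4, and HSP90AA1 (0.0864), MSRB1 (0.109), TGFB1 (0.0973) and VWA5A (0.061) in 3. Those of EXO1 (0.0762), HSPD1 (0.104), TM6SF1 (0.0897) and UNCX (0.0776) were lost in 2, and those of DHRS9 (0.0551), HSP90B1 (0.0515), NCL (0.1), OAS3 (0.0585) and PARP9 (0.0508) in 1. Leaving out 1 HL-60 library was among these settings for every one of the 26 except HSP90B1, NCL and PARP9. VWA5A lost its call without ATO library 3 or untreated library 2 or 3, TM6SF1 without ATO library 2 or untreated library 2, and UNCX without ATO library 3 or untreated library 2.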

How the results depend on the processing

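A stricter threshold of 0.01 left 3020 called genes, 1813 higher and 1207 lower, against 4554, 2625 and 1929 at 0.05. Every other setting kept the counts within 1.5 times of these, between 4016 (all 24 libraries) and 5086 (only the 6 libraries compared), and between 3586 and 4201 without 1 library. DESeq2 called 4926 genes and limma-voom 4676. With the batch as a block (replicate block) 4725 genes were called, no named gene lost its call and 4 uncalled ones, ABCC1, ATM, DUSP6 and ASPM, gained one. For the line difference the block gave 2211 genes, against 2349 without it, between 1857 and 2253 were called without 1 HL-60 library, and the other scalings and filters gave 2345 to 2496. The block ended the line-difference calls of MYC (adjusted p = 0.0526), ABCC1 (0.0569), BACH1 (0.0633), MAFG (0.051) and MXI1 (0.0531).

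Of all 4554 called genes, between 3501 and 3806 were called again in the same direction without 1 library, and 3795 in the fit of all 24 libraries. Of 213 called named genes 198 kept their call and direction in all 17 settings, and none of the 213 reversed. Many of these were named for their small p-values or large changes, so their stability does not stand for that of other called genes. Of 113 line differences of named genes 87 kept their call in all 11 settings run for them, 26 lost it in at least 1, and none reversed. Uncalled genes near 0 changed sign when 1 library was left out. The log2 value of NARS1 then lay between -0.02 and 0.03, that of CSF3R between -0.05 and 0.06, that of LAP3 between -0.04 and 0.03 and that of TFEC between -0.09 and 0.02. Of 1700 counts of list members 1533 stayed within 1.5 times. The cause was not tested. At these depths a gene with few reads per library, such as AQP9, LTF or AS3MT, cannot be sized.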

Other observations

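The falls in class I and class II genes were compared with their neighbours on chromosome 6, in a window chosen after the values were seen (positions 25000000 to 35000000, GENCODE v29, GRCh38). The 11 HLA and BTN3A genes there that reached 5 CPM, which encode antigen-presenting and phosphoantigen-sensing surface proteins, had a median log2 change of -0.76, with 9 called lower and 1 higher. The 83 other genes of the window had a median of 0.01, with 19 called lower and 14 higher. The split was by gene name alone, so any antigen presentation gene with another name counts among the 83.

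Some markers of megakaryocytes and B cells had more reads with ATO, at low levels. The platelet chemokine gene PPBP had 18, 14 and 12 reads with ATO, against 0, 0 and 2 reads in untreated HL-60 cells. The summed megakaryocyte markers were between 1.27 and 2.07 CPM with ATO and between 0.182 and 0.55 CPM in untreated cells, with 3 of 8 at 0 reads. The summed B cell markers were between 8.7 and 10.2 CPM with ATO and between 2.42 and 3.49 CPM in untreated cells, with 2 of 7 at 0 reads. Their part in other results was not tested.

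The retinoic acid hydroxylase gene CYP26B1 went the other way, with no reads in any ATO library and 18, 6 and 2 reads in untreated ones. The class I gene HLA-F had 0, 2 and 0 reads with ATO, against 26, 10 and 10 reads in untreated cells.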
